A study of Mus musculus with 88 samples.

Results

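The 10 genes described here encode the core of the spindle assembly checkpoint and of the chromosomal passenger complex. They are Mad1l1, Mad2l1, Bub1, Bub1b, Bub3 and Ttk of the checkpoint, and Aurkb, Aurkc, Incenp and Birc5 of the passenger complex. They were taken as a list of gene names, and each was found as 1 feature among the 38540 features of the oocyte transcriptome over which reads were counted. Mad2l1 and Aurkc were named by the study's own table, and the other 8 by the best overlapping span of a GENCODE M21 gene of that strand. Transcripts were read in single fully grown germinal vesicle (GV) oocytes, the stage at which the oocyte waits in the first meiotic prophase, from virgin C57BL/6Babr females that were young (12 weeks, 42 oocytes) or old (44 to 54 weeks, 46 oocytes). No other treatment or allele is named for either group, and both groups share the strain, the virgin state and the stage.

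The oocytes were further divided by the study into a non-surrounded nucleolus (NSN) and a surrounded nucleolus (SN) class. In NSN oocytes the chromatin is dispersed and transcription goes on, and in SN oocytes it is condensed around the nucleolus and transcription has stopped. This class was not seen under a microscope. It was predicted by the study from the RNA counts of each oocyte and so depends on the same libraries as the levels given below, and whether any of the 10 genes was used for the prediction is not known here. The young group held 30 NSN and 12 SN oocytes and the old group 37 NSN and 8 SN oocytes. The remaining old oocyte had no class and was left out of the values below, which therefore rest on 87 oocytes.

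When chromosomes are not yet attached to the spindle, the checkpoint holds the cell in metaphase. TTK (MPS1) starts the signal at the kinetochore, BUB1 and BUB3 dock there, and MAD1 presents MAD2, which together with BUBR1 (the product of Bub1b) and BUB3 blocks CDC20, the activator of the anaphase promoting complex. The passenger complex works beside it. INCENP, survivin (Birc5) and borealin (Cdca8) carry the Aurora kinase to the inner centromere, where it releases wrong attachments. Aurora B is the kinase of dividing body cells, and Aurora C is a close relative found mainly in germ cells. A GV oocyte has no spindle yet and stores these transcripts for the meiotic divisions, which it carries out without new transcription, and errors of chromosome segregation in oocytes are known to become more frequent with maternal age.

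Reads carried no molecular identifiers, so counts stand for reads rather than molecules, and levels are given as counts per 1000000 counts of the oocyte (CPM). CPM are shares of the oocyte's reads, and the amount of RNA per oocyte was not measured. Total counts ran from 1579196 to 8231046 in young and from 976456 to 5448310 in old oocytes. At this depth all 10 genes were counted in all 87 oocytes, the lowest single value being 14 counts of Aurkb. The source animal of an oocyte is not labelled. Oocytes of 1 mouse are not replicates of an age, and so each age group, and each class within it, is 1 sample here and no test between groups was run. Group levels are summed counts over summed totals, their 95% intervals cover counting error alone, and the SD or the lowest, median and highest oocyte describe the spread. A difference was counted as past the line when the 2 group levels were at least 1.2-fold apart. Oocyte identity was plain in the files. Of 9 oocyte markers 8 had a feature (Figla did not), and their summed level was 8683 to 21294 CPM per oocyte. Of 10 granulosa cell markers 9 had a feature, and their summed level was 19.6 to 85.2 CPM, mostly of Nr5a2, while Amh and Foxl2 stayed at or below 0.34 CPM in every group. The haemoglobin genes Hbb-bs and Hba-a1 were at 0 in all groups. Lyz2, a gene of macrophages and granulocytes, was at 0.05 CPM or less in 3 of the 4 age and class groups and reached 41.8 CPM in 1 old NSN oocyte, and its part in the values below was not tested.

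Levels between genes can only be compared per length of transcript. With the length of the main GENCODE transcript, Birc5 stood highest at 474 ± 56.4 CPM per kb (SD over 87 oocytes), followed by Bub1b at 354 ± 56.6. Aurkc at 198 ± 40.3 and Mad2l1 at 188 ± 36.1 CPM per kb were neighbours that could not be separated, since Aurkc was above Mad2l1 in 64.4% of oocytes. Ttk followed at 111 ± 15.3, Bub3 at 70.7 ± 7.99, Bub1 at 55.2 ± 12.0, Incenp at 38.6 ± 6.54, Mad1l1 at 20.3 ± 4.16 and Aurkb at 10.7 ± 2.48 CPM per kb. Apart from the Aurkc and Mad2l1 pair, each gene was above the next in at least 80.5% of oocytes. The order depends on the length chosen for genes with several transcript forms. With the length of all annotated exons together, Birc5 was 3rd at 132 CPM per kb and Mad2l1 was 6th at 40.3, while Bub1b was 1st and Mad1l1 and Aurkb kept the last places. In CPM without length, Bub1b at 1299 CPM was above 99.8% of the features, and Aurkb at 20.8 CPM above 78.8%.

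The Aurora pair was therefore unequal at every age. In young oocytes Aurkc counts were a median 11.5 times those of Aurkb (range 6.81 to 23.2 over 42 oocytes), and in old oocytes 11.2 times (7.07 to 17.5 over 45). Aurkc outnumbered Aurkb in every oocyte. These are ratios of counts that leave out length, and the main transcript of Aurkc is the shorter one (1.154 against 1.95 kb). The Aurkc counts carry an uncertainty that the other genes do not share. Of the 1667 stretches of 50 bases in its transcripts, 54.8% also occur in transcripts of other genes, the annotated copies Gm12463, Gm6909, Gm7789 and Gm7210 among them, against at most 2.09% for each of the other 9 genes. Primary alignments were counted, so a read that fits several of these places entered at 1 of them at most, and how often it was the Aurkc gene is not known here. Of these copies Gm7789 could be followed, and its level was between 14.5 and 14.9 CPM in all 4 age and class groups.

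**Figure D1:**
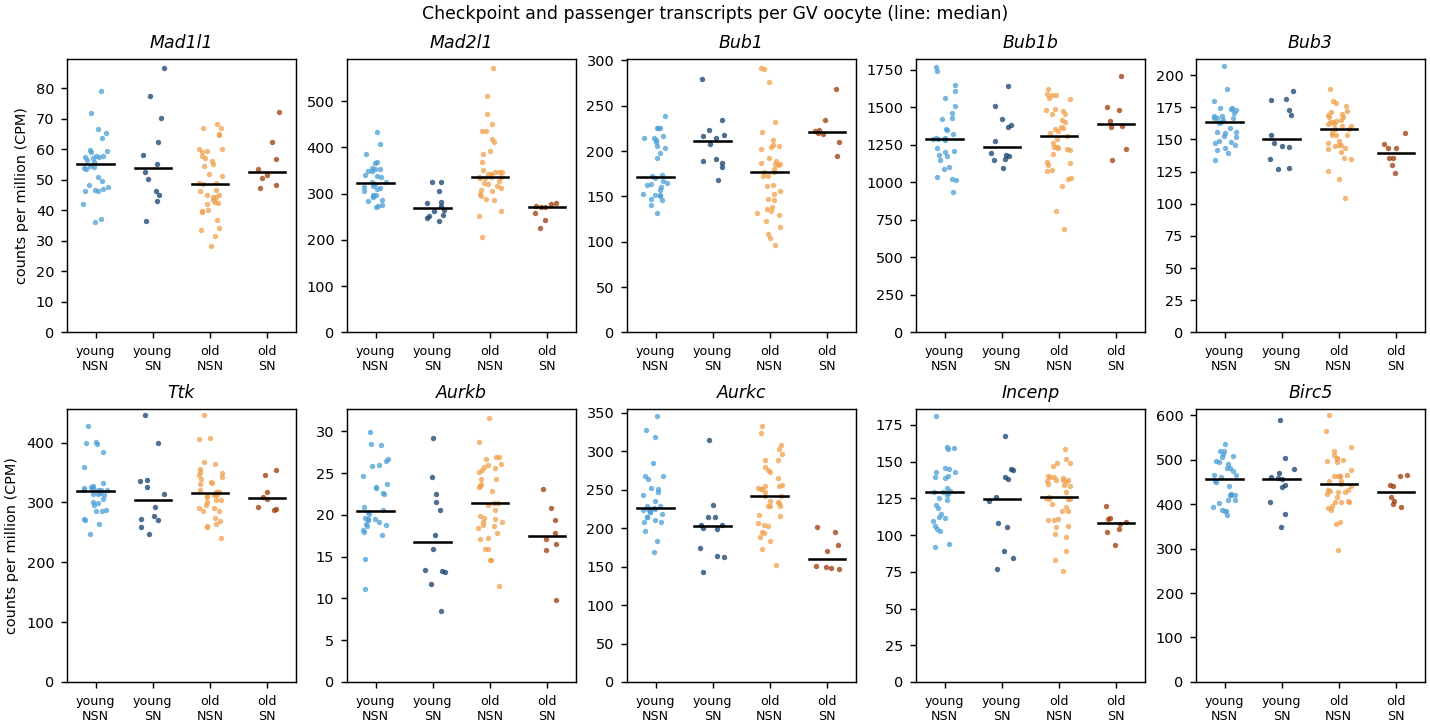
CPM of the 10 transcripts (vertical axes, linear from 0) in each of the 87 GV oocytes, in 4 columns for young NSN (30), young SN (12), old NSN (37) and old SN (8) oocytes. Each point is 1 oocyte and the black line is the median of the group. Mad2l1 and Aurkc lie lower in the SN columns than in the NSN columns, Bub1 lies higher in them, and the points of Mad2l1 and Bub1 are widest in the old NSN column.

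The first comparison asks whether the stored checkpoint and passenger transcripts differ with the age of the female. Between all old and all young oocytes, 0 of the 10 genes were past 1.2-fold, and among the 9397 features tested 1.39% were higher and 3.86% lower in old oocytes by that measure. The median log2 ratio, old over young, was -0.01 for the 10 genes and -0.00 for all features. Mad1l1, which anchors MAD2 at kinetochores, had the lowest ratio. Its level was 56.2 CPM in young oocytes (36.1 lowest, 54.9 median, 86.7 highest) and 50.6 CPM in old oocytes (28.3, 49.0 and 72.2), a log2 ratio of -0.15 with a counting interval of -0.20 to -0.10. The ranges overlapped, with 4 of 45 old oocytes below all young ones and 3 of 42 young ones above all old ones.

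Mad2l1, the checkpoint effector that binds CDC20, had the highest ratio. It was at 311 CPM in young oocytes (240 lowest, 312 median, 433 highest) and at 338 CPM in old oocytes (205, 334 and 573), a log2 ratio of 0.12 with an interval of 0.10 to 0.14. Among pairs of 1 old and 1 young oocyte the old one was higher in 58.5%. The medians were closer than the summed levels, and 6 of the 45 old oocytes lay above every young oocyte while 2 lay below every young oocyte. The other 8 genes were between -0.09 (Bub3, 152 against 161 CPM) and 0.02 (Aurkc, 229 against 227 CPM). Bub1b, by far the most abundant in CPM, was at 1303 CPM in young and 1294 CPM in old oocytes, and Ttk at 318 and 317 CPM.

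Within NSN oocytes alone the picture of age was alike. Again 0 of the 10 genes were past 1.2-fold, and of 9324 features tested 1.69% were higher and 4.62% lower in old NSN oocytes. The ratios ran from -0.12 for Mad1l1 to 0.11 for Mad2l1, and the 4 passenger genes lay between -0.03 (Incenp) and 0.04 (Aurkc). Among oocytes whose names carry the suffix A, a mark whose meaning the labels do not give, Mad2l1 passed the line in old over young at 0.30 over all oocytes and 0.27 over NSN oocytes. Among oocytes without the suffix it was on the other side, at -0.07 over all oocytes and -0.09 over NSN oocytes, so Mad2l1 had no steady direction with age.

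Within SN oocytes, where only 8 old and 12 young oocytes were available, 1 of the 10 genes was past 1.2-fold, against 10.3% of 9703 features higher and 8.29% lower in old SN oocytes. This gene was Aurkc. It was at 203 CPM in young SN oocytes (143 lowest, 203 median, 315 highest) and at 163 CPM in old SN oocytes (147, 160 and 202), a log2 ratio of -0.31 with an interval of -0.37 to -0.25. The ranges overlapped and 6 of 12 young SN oocytes lay above all old ones. Without 1 run of old oocytes with consecutive numbers (from 41) the ratio was -0.24, and after drawing each oocyte down to 900000 counts it was -0.24, both short of the line. Incenp, the scaffold of the complex, lay just inside the line at -0.26 (107 against 127 CPM), but its value rested on the young run from 17, without which it was -0.04, and it was -0.39 without the young run from 33. Bub3 was at -0.22 (139 against 162 CPM). All 4 passenger genes were below 0, with a median of -0.21, and 3 of the 6 checkpoint genes were above 0, with a median of 0.00, the median over all features being -0.00. The passenger count rested on the young run from 17, without which Aurkb was at 0.17, Incenp at -0.04 and Birc5 at -0.03. Aurkb was at 0.03 without the most deeply read young SN oocyte alone, and the old SN oocyte was the higher one in 52.1% of its pairs.

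**Figure D2:**
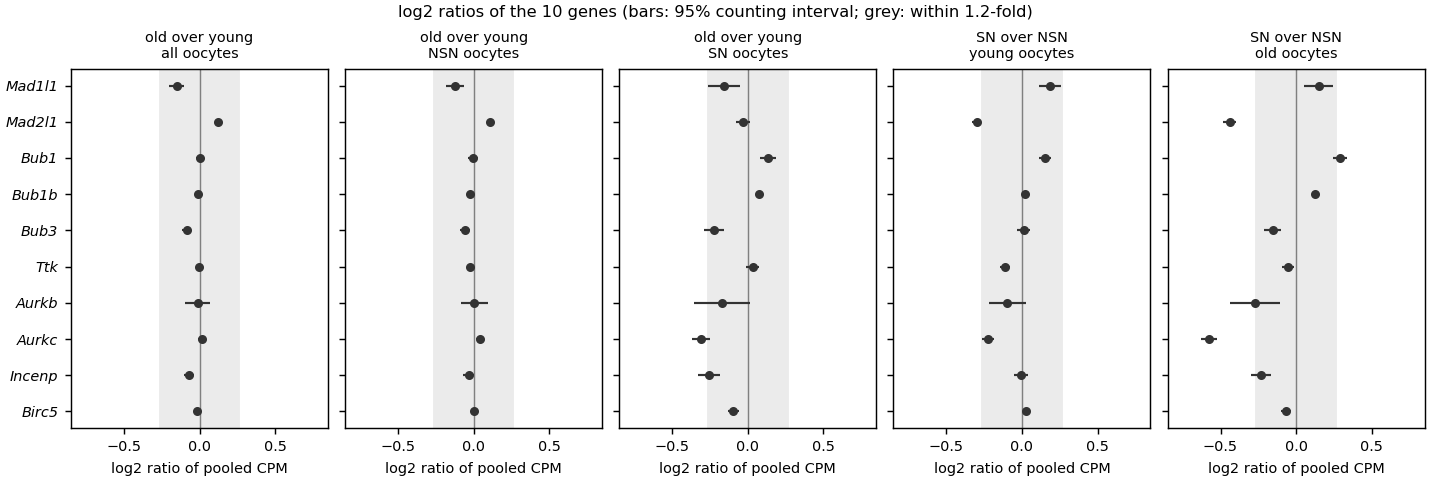
log2 ratios of summed CPM (horizontal axes) of the 10 genes in 5 comparisons, old over young in all, NSN and SN oocytes and SN over NSN in young and in old oocytes. Points are ratios, bars are 95% intervals of counting error only, and the grey band marks ratios within 1.2-fold. The old over young ratios of all oocytes and of NSN oocytes stay inside the band, and Mad2l1 lies to the left of it in both SN over NSN panels.

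The second comparison sets SN against NSN oocytes. In young oocytes 1 of the 10 genes was past 1.2-fold, against 12.5% of 9586 features higher and 5.89% lower in SN. This was Mad2l1, at 329 CPM in NSN oocytes (270 lowest, 323 median, 433 highest) and 267 CPM in SN oocytes (240, 269 and 325), 1.23-fold higher in NSN. The log2 ratio of SN over NSN was -0.30 with an interval of -0.33 to -0.27, and in 86.9% of pairs the NSN oocyte was the higher one. The groups overlapped, but 15 of 30 NSN oocytes were above all SN oocytes. Mad2l1 was close to the line, standing at -0.25 for the mean over oocytes, at -0.24 without the young run of consecutive oocyte numbers from 1 and at -0.23 without the young run from 17. Among the other 9 genes, Mad1l1 at 0.19 was inside the line, at 0.34 without the young run from 33 and at -0.06 without the young run from 17, and in pairs of oocytes the SN one was higher in 50.0%.

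In old oocytes 4 of the 10 genes were past 1.2-fold, 1 higher and 3 lower in SN, where 22.9% of 9747 features were higher and 18.0% lower. Mad2l1 was again lower. It was at 354 CPM in old NSN oocytes (205 lowest, 336 median, 573 highest) and 261 CPM in old SN oocytes (225, 270 and 280), a log2 ratio of -0.44 with an interval of -0.48 to -0.40. Of the 37 NSN oocytes 34 were above the highest SN oocyte, and 1 was below the lowest. Among oocytes without the suffix A the ratio was -0.25, inside the line, and among those with it -0.61.

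Aurkc had the largest difference of the 10 genes. It was at 244 CPM in old NSN oocytes (153 lowest, 242 median, 333 highest) and 163 CPM in old SN oocytes (147, 160 and 202), 1.49-fold higher in NSN, with a log2 ratio of -0.58 and an interval of -0.63 to -0.52. Of the 37 NSN oocytes 31 were above all SN oocytes and 4 of the 8 SN oocytes were below all NSN oocytes. In young oocytes Aurkc lay on the same side but inside the line, at -0.22 (203 CPM in SN and 237 CPM in NSN), and at -0.27 without the young run from 17. The copy Gm7789, which shares sequence with Aurkc, had SN over NSN ratios of -0.00 in young and 0.04 in old oocytes.

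Bub1, the kinase that marks centromeric chromatin for the passenger complex, went the opposite way. It was at 182 CPM in old NSN oocytes (96.7 lowest, 177 median, 292 highest) and 223 CPM in old SN oocytes (194, 221 and 268), a log2 ratio of 0.29 with an interval of 0.24 to 0.34. All 8 SN oocytes were above the NSN median and 27 of 37 NSN oocytes were below the lowest SN oocyte, but 3 NSN oocytes were above the highest. The ratio was 0.24 without 1 of the SN oocytes and 0.23 without either the old run from 9 or that from 25, all inside the line. It was 0.16 among oocytes with the suffix A and 0.40 among those without it. In young oocytes Bub1 was at 183 CPM in NSN and 203 CPM in SN, a ratio of 0.15.

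Aurkb was lower in old SN oocytes by -0.27 (17.7 against 21.4 CPM), with a wide interval of -0.44 to -0.11 because it had the fewest counts. Its ratio was -0.17 without the old run from 25 and -0.25 without that from 9, and leaving out single oocytes moved it between -0.35 and -0.20. In young oocytes it was -0.10, and -0.29 without the most deeply read young SN oocyte, which alone had 8231046 counts. Without the young run from 17, which includes that oocyte, it was -0.45, and without the young run from 33 it was 0.12, so Aurkb had no steady direction in young oocytes. Incenp at -0.23 in old oocytes was inside the line, but past it at -0.31 without the old run from 41 and at -0.27 without that from 9. Bub3 at -0.16 was inside the line, as were Bub1b (0.12), Mad1l1 (0.15), Ttk (-0.06) and Birc5 (-0.07). Whether the SN over NSN ratios differ between young and old oocytes was not tested, because each group is 1 sample.

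Promoter sequence is shown for Mad2l1 and Bub1, which lay on opposite sides in SN oocytes, and for Ttk, whose level went up and down with that of Bub1 across oocytes (given below). Each run is the 150 bases before the RefSeq start, 5′ to 3′ on the gene's strand in GRCm38.p6, with capitals marking the CCAAT box, the letters that the factor NF-Y binds and that occur in many cell cycle promoters, or its reverse ATTGG. Mad2l1 is at chr6:66535071-66535220 on the plus strand, Bub1 at chr2:127831860-127832009 on the minus strand and Ttk at chr9:83834539-83834688 on the plus strand.
Mad2l1: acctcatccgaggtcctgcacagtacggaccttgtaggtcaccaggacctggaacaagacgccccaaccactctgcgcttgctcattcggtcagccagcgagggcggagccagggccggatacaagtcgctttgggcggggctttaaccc
Bub1: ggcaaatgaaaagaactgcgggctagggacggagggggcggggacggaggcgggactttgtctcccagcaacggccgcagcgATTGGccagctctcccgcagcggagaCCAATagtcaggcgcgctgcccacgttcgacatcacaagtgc
Ttk: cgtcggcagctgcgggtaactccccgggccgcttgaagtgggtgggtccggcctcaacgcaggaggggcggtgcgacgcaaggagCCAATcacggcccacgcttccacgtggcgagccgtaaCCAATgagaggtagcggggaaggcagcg
Within these bases Bub1 and Ttk each hold the box at 2 places and Mad2l1 at 0. RefSeq promoters were found for 8 of the 10 genes (Aurkb and Incenp had no entry). Over the 250 bases before the start, on both strands, the box was in 4 of the 8 (Bub1, Bub1b, Bub3 and Ttk), and in 33.8% of 32851 promoters in all. The cell cycle homology region TTTGAA, searched in the same way, was in 1 of the 8 (Bub3) and in 15.99% of all. These are matches of letters, not sites shown to be bound. Across oocytes Bub3 and Bub1b went against Bub1 (Pearson's r = -0.37 and -0.27), so the holders of the box did not all vary together. For some genes the oocyte feature starts elsewhere. It began 20 bases before the RefSeq start for Mad2l1 and 44 before for Ttk, but 9309 before for Bub1, 6187 before for Bub1b and 2007 before for Mad1l1, so the Bub1 bases above lie inside the feature read in oocytes. For Mad2l1 the GENCODE gene starts elsewhere than RefSeq, and the feature began 189 bases before the GENCODE start. Ttk is at chromosome 9, 83834645 to 83872390, Mad2l1 at chromosome 6, 66535201 to 66547184, and Bub1 at chromosome 2, 127801122 to 127841168 in GRCm38, each a protein coding gene with no other counted feature over it on either strand.

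The opposite sides of Mad2l1 and Bub1 could be followed within single oocytes, as the ratio of their counts, which does not depend on the total. This pair was chosen after its values had been seen. In young oocytes the median ratio of Mad2l1 to Bub1 was 1.90 in NSN (range 1.22 to 2.63) and 1.27 in SN (1.16 to 1.82). In old oocytes it was 1.97 in NSN (1.10 to 4.34) and 1.21 in SN (0.904 to 1.39). All 12 young and all 8 old SN oocytes were below the NSN median of their age. Above the highest SN oocyte of the same age were 16 of the 30 young and 34 of the 37 old NSN oocytes. Aurkc to Bub1, also chosen after its values were seen, had a median of 1.30 in NSN and 0.980 in SN among young oocytes and of 1.35 and 0.696 among old ones. Above all SN oocytes of their age were 33 of 37 old NSN oocytes but only 4 of 30 young ones. Of the pairs chosen earlier, Bub1b to Bub1 had medians of 7.65 in young NSN, 6.21 in young SN, 7.25 in old NSN and 6.44 in old SN oocytes. Mad2l1 to Mad1l1, the partners of the checkpoint's core complex, had medians of 6.16, 4.82, 6.91 and 5.18 in the same order.

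**Figure D3:**
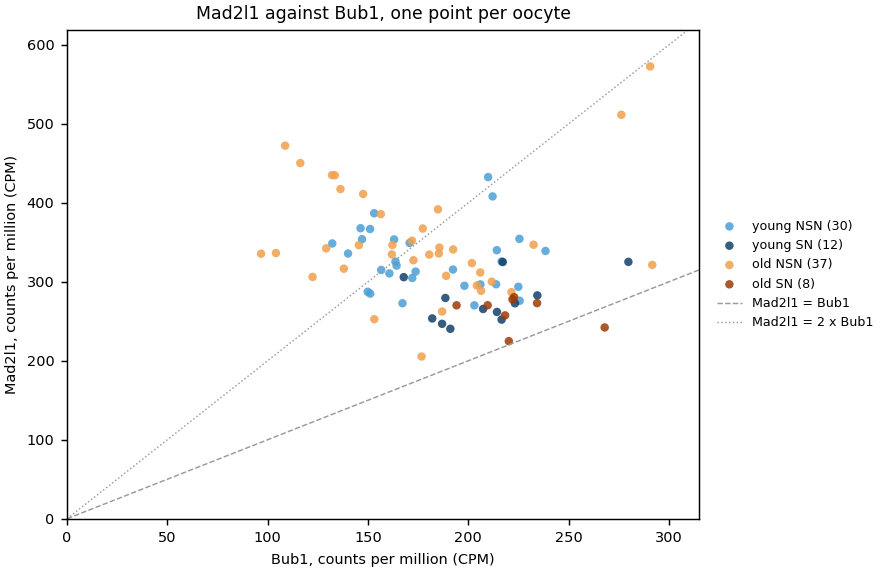
Mad2l1 (vertical axis) against Bub1 (horizontal axis), both in CPM, with 1 point per oocyte coloured by age and class; the dashed line marks equal levels and the dotted line a Mad2l1 level 2 times that of Bub1. SN oocytes of both ages lie low and to the right, near the dashed line, while old NSN oocytes spread to ratios of 4.34, and 2 old NSN oocytes stand alone at the upper right.

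The third comparison concerns how much the oocytes of an age vary among themselves. For this the variance over oocytes, less the part due to counting, was divided by the squared mean (dispersion). Of the 10 genes 5 were more dispersed in old oocytes, where 73.7% of 12140 features were, and 2 were so by at least 2-fold, where 23.2% of the features were. The median log2 ratio of dispersion, old over young, was -0.03 for the 10 genes and 0.46 for all features. The 2 genes were Mad2l1 and Bub1. Mad2l1 had a coefficient of variation (CV) of 14.3% over young and 24.1% over old oocytes, a 2.84-fold higher dispersion. Bub1 had 17.9% and 27.5%, a 2.36-fold higher dispersion. The other 8 genes had log2 ratios between -0.80 (Aurkb, CV 21.4% in young and 16.2% in old oocytes) and 0.32 (Birc5, 10.7% and 11.9%). Bub3 varied least at both ages, with CVs of 10.1% and 9.05%.

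**Figure D4:**
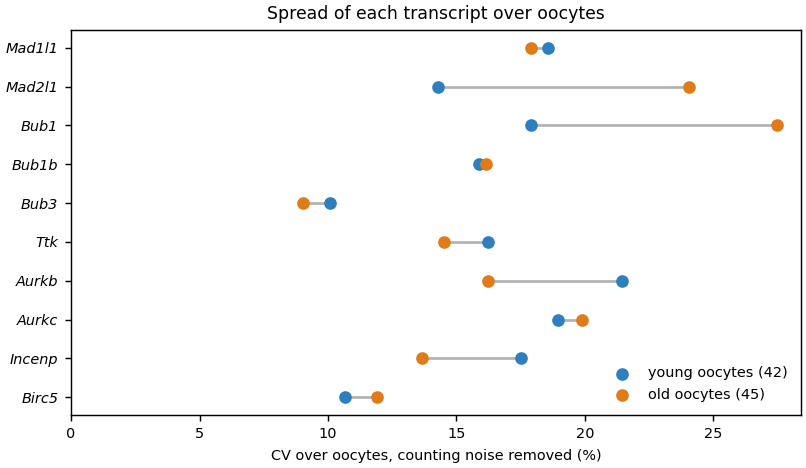
CV over oocytes in percent, with counting noise removed (horizontal axis from 0), for each of the 10 genes in 42 young (blue) and 45 old (orange) oocytes. Grey lines join the 2 ages of a gene. Mad2l1 and Bub1 have the longest lines towards higher spread in old oocytes, and Aurkb the longest towards lower spread.

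This wider spread lay in the NSN class. Among NSN oocytes alone the log2 ratio of dispersion was 1.75 for Mad2l1 and 1.52 for Bub1. Among SN oocytes all 10 genes had a lower dispersion in the 8 old than in the 12 young oocytes, from -0.01 for Bub1b to -4.18 for Incenp, where 58.2% of 10953 features were less dispersed in old SN oocytes. Levels also differed between runs of consecutive oocyte numbers, of which there were 3 per age and whose meaning the labels do not give. Over the 3 old runs the Bub1 level of NSN oocytes was between 156 and 217 CPM, and over the 3 young runs between 180 and 191 CPM. For Mad2l1 the runs of old NSN oocytes were between 302 and 381 CPM and those of young NSN oocytes between 292 and 347 CPM. With the variance taken within runs over all oocytes of an age, the log2 ratio of dispersion was 1.75 for Mad2l1 and 1.10 for Bub1.

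A pair of old NSN oocytes stood apart from the rest and bear on these values. Both carried the suffix A and came from the old run from 41, as did the old oocyte with the highest Bub1 (292 CPM). The 2 oocytes of the pair thus also enter the values given for that run and that suffix. They had the highest Mad2l1 of all old oocytes, at 511 and 573 CPM, together with Bub1 at 276 and 291 CPM. They also had the lowest values of all 45 old oocytes for Bub1b (807 and 686 CPM), Bub3 (105 and 119 CPM) and Incenp (83.2 and 75.3 CPM), and 1 of them the highest Ttk (446 CPM). Their totals of 2968358 and 3840379 counts were not low. In part such values also occurred in young oocytes. The young oocyte with the highest Mad2l1 (433 CPM) had the lowest Bub1b of its age (935 CPM). Its Bub3 (147 CPM) and Incenp (103 CPM) were not the lowest of its age. How many of all features lay at an extreme in the 2 old oocytes was not counted. Without these 2, picked after the values were seen, Mad2l1 was 1.65-fold and Bub1 1.86-fold more dispersed in old oocytes, so that neither reached 2-fold, while the median log2 ratio over all features was 0.37. The old over young ratio of Mad2l1 was then 0.06 over all oocytes and 0.05 over NSN oocytes, and SN over NSN in old oocytes was -0.38 for Mad2l1, 0.36 for Bub1 and -0.61 for Aurkc.

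Across the 87 oocytes, each drawn down to 900000 counts and taken as its deviation from the mean of its age and class, the genes did not vary as 1 group. The values are descriptions, since the oocytes share mice that are not named and CPM are shares of 1 total. Bub1b went with Bub3 (Pearson's r = 0.56), with Incenp (0.52) and with Mad1l1 (0.52). Bub1 went with Ttk (0.48). The lowest value was that of Bub1 with Aurkc at -0.58, which was -0.52 over young and -0.64 over old oocytes, and Mad2l1 with Bub1b was at -0.45. Mad2l1 and Bub1 themselves were at -0.06. Without the 2 oocytes described above, Bub1 with Aurkc was at -0.55, Bub1b with Bub3 at 0.48, Mad2l1 with Bub1b at -0.30 and Mad2l1 with Bub1 at -0.29. Aurkb and Aurkc, the kinases of the same complex, were at 0.22.

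For the 5 genes with the most counts, the features whose level followed theirs most closely over the 87 oocytes were sought in the same way among 3977 features. Mad2l1 was followed by Orc5 (r = 0.78), Nsmce2 (0.72) and Tm7sf3 (0.72). Bub1b was followed by Trim60 (0.79), Cacna1d (0.78) and Dclk2 (0.77), Ttk by Baz2b (0.72), Fxr1 (0.66) and Gpbp1 (0.65), Aurkc by Rbpms (0.63), Gpr1 (0.62) and Gm14635 (0.61), and Birc5 by Ldhb (0.71), P4hb (0.63) and Pecr (0.62). None of the 5 had another of the 10 genes among its first 3. The median r over the features was between -0.07 and 0.06 for these 5 genes.

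The partners of these proteins at the kinetochore and centromere were read as a list of 24 genes, of which 23 had a feature and Haspin had none. Between all old and young oocytes 1 of the 22 that passed the filter of 10 CPM in a group was past 1.2-fold, and the median was -0.01. Of all features tested 1.39% were higher and 3.86% lower. Nsl1, at 2.49 CPM in old oocytes, missed the filter. The gene past the line was Trip13, the ATPase that takes apart the MAD2 complex, at 12.3 CPM in old and 9.59 CPM in young oocytes (0.35). Trip13 passed the filter through its old level alone. A partner as low in both groups as Trip13 in young oocytes would not have been counted. Among SN oocytes Trip13 was at 15.3 CPM in old and 9.996 CPM in young oocytes (0.61), again passing the filter through its old level alone. Spc24 at 0.29 was the other one past the line there, where 10.3% of all features were higher and 8.29% lower. Mad2l1bp, which works with Trip13, was at 21.8 CPM in old and 24.5 CPM in young oocytes (-0.16).

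Cdca8, which encodes borealin, the remaining subunit of the passenger complex, was at 230 CPM in old and 214 CPM in young oocytes (0.10) and Aurka, the spindle pole kinase Aurora A, at 312 CPM in both (0.00). Knl1, the kinetochore platform on which BUB1 and BUB3 dock, was at 115 and 118 CPM (-0.04). In SN over NSN of old oocytes, 5 of 22 partners were higher and 5 lower, shares close to the 22.9% and 18.0% of all features. The lower ones were Cdca8 (-0.34), Aurka (-0.32), Ndc80 (-0.33), Cdc20 (-0.31) and the kinetochore motor Cenpe (-0.43). The higher ones were Spc24 (0.34), Zw10 (0.42), Kntc1 (0.50), Cenpc1 (0.40) and Trip13 (0.40), of which Zw10 and Kntc1 belong to the complex that brings dynein and MAD1 to kinetochores. Of the listed genes that share in this task, Zwilch was at 0.10 and Spdl1 at -0.15, both inside the line. The higher values thus did not extend to all of them. In young oocytes 1 of 21 was past the line, Zw10 at 0.29, where 12.5% of all features were higher and 5.89% lower. Cdca8 was at -0.11 and Aurka at -0.13.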

How the data were processed

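RNA of single oocytes was captured on oligo-dT beads and amplified as Smart-seq2 cDNA. Per the study's methods, reads were trimmed with Trim Galore and aligned to GRCm38 with HiSat2, and the authors deposited raw counts of primary alignments per feature of an oocyte transcriptome, without normalisation. The counting program and its strand setting are not given in the sources used here, so reads of genes on opposite strands (Bub1 and Acoxl, Bub3 and Fgfr2, Mad1l1 and several) may not be told apart. The methylation data were not analysed here.

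Ages came from the labels and NSN or SN from the study's sample table. The study treated oocytes as replicates. Here, with no mouse named, no test was run, and p-values are not given. CPM are summed counts over summed totals. Features tested had at least 10 CPM in a group and 3 counts in both, and those for dispersion a mean normalised count of at least 10 with median of ratios size factors. Log values for correlations used a pseudocount of 1 and ratios within an oocyte one of 0.5. Features sought for likeness had a mean of at least 50 counts. Intervals are exact (Poisson or conditional binomial, 95%). All 10 genes are named, with values of partners named from a list or past 1.5-fold. The genes and lists were chosen with earlier results of these data known. Alternatives covered depth, scaling, averaging, oocytes and runs included, and thresholds. Calculations used Python 3.11.15, numpy 2.4.6, scipy 1.17.1 and pandas 2.3.3 and were tested on simulated counts.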

Additional observations from a re-analysis of the deposited data

Results flagged for a closer look

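One old oocyte had no chromatin class and entered no comparison. The study's methods leave out an oocyte as an outlier of a distance matrix, and the one without a class was taken to be it, so that values apart from the others are no independent observation. It lay above all of the 45 other old oocytes for 3 of the 10 genes. Bub3 was at 262 CPM there against a highest value of 189, Aurkb at 36.8 against 31.6, and Birc5 at 759 against 599. It also lay below all of them for Bub1b (565 CPM against a lowest value of 686) and Ttk (144 against 240). How many of all features lay outside the range in this oocyte was not counted, so these counts do not set the 10 genes apart. With this oocyte included, old over young ratios past 1.2-fold numbered 0 of 10 as before, and 7 of 10 genes were more dispersed in old oocytes, where 79.7% of 12177 features were. Among the 8 old SN oocytes, the only group of a size at which single outliers were looked for, none stood out for any of the 10 genes by Dixon's criterion.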

How the results depend on the processing

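Of the old over young comparisons, the number of genes past 1.2-fold stayed at 0 of 10 over all oocytes and over NSN oocytes under every alternative run except among oocytes with the suffix A, where it was 1 in both. Over SN oocytes (1 gene) it was 0 at 900000 counts each, 2 with TMM factors, 3 with and 2 without the suffix A, and 0 at 1.5-fold, with 1 to 5 when 1 run or oocyte was left out, the 5 coming without the young run from 33 (Mad1l1 at -0.28, Bub3 at -0.27, Aurkb at -0.36, Aurkc at -0.38 and Incenp at -0.39). For SN over NSN in young oocytes (1 gene) it was 0 at 900000 counts each, 3 with medians over oocytes, 2 with and 2 without the suffix A, 0 at 1.5-fold, and 0 to 2 with a run or oocyte left out. In old oocytes (4 genes) it was 0 at 1.5-fold and 2 to 5 with a run or oocyte left out, and within 3 to 5 otherwise. No gene past the line in the main values changed its direction within that comparison. Genes past it only under an alternative did. Among SN oocytes Mad1l1 and Aurkb, named above, were at 0.05 and 0.17 in old over young without the young run from 17. Of the 590 single gene ratios recomputed, 266 left their counting interval. Without a CPM minimum 34.6% of features were past 1.2-fold in old over young, against 5.26%. The number of genes more dispersed in old oocytes (5) was between 4 and 7 except over SN oocytes alone, where it was 0, a setting chosen after seeing the data. The 2-fold dispersion of Mad2l1 and Bub1 depended on 2 oocytes, as given above. Old and young oocytes could not be paired because oocyte numbers of the age groups are not shared and name no mouse. SN over NSN was not taken within single runs, over which the classes were unevenly spread. The young run from 1 held 13 NSN oocytes of 14 and that from 33 held 7 of 13. Their NSN levels of Mad2l1 were 347 and 292 CPM, so part of its young SN over NSN ratio may lie between runs. Depth limits Aurkb most (14 counts at the lowest), and 8 old SN oocytes limit every value on that class.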
